A study of Rattus norvegicus with 18 samples.

Results

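This comparison set neonatal rat ventricular myocytes given SR9009 for 24 h against the same kind of culture given vehicle for 24 h, both collected at 0 h of phenylephrine. The myocytes are heart muscle cells from the ventricles of day 2 Sprague-Dawley pups, plated in medium with 10% serum and then kept without serum for 24 h before the compound was added. The series also holds SR9009 and vehicle cultures after 4 h and 48 h of phenylephrine (PE), an agonist of the α1-adrenergic receptors that makes cultured myocytes grow. Each of the 6 groups had 3 libraries, and the 0 h groups together take in 6 of the 18 libraries. The labels do not say whether the 3 libraries of a group came from separate cultures, nor do they give the dose of SR9009 or the nature of the vehicle.

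The deposited values are FPKM, a count of fragments scaled to transcript length and to the sequenced total, with 1 value per gene and group and a lower and an upper confidence bound. Values of single libraries are not given, so the groups could not be tested against each other and no error over replicates can be stated. Of 17312 genes, 10431 were used. These had an estimate above 0 in both 0 h groups, and their 6 group values averaged 1 FPKM or more. Differences are of log2(FPKM + 1), SR9009 minus vehicle. Values in parentheses after a difference are its range, taken from the lower bound of either group to the upper bound of the other. A call, higher or lower, needed a difference of 1 or more in either direction, which is a 2-fold change in well expressed genes, and a range without 0. The bounds lay a median of 15% of the value to either side with SR9009 and 14.9% with vehicle, over genes with 5 FPKM or more.

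SR9009 is a synthetic agonist of REV-ERBα and REV-ERBβ, the nuclear receptors encoded by Nr1d1 and Nr1d2. They bind heme and repress transcription, and are best known for closing a feedback loop of the circadian clock by repressing Arntl, which encodes the clock activator BMAL1. Several gene programs below belong to other regulators. NRF2 (gene Nfe2l2) induces antioxidant and conjugating enzymes through the antioxidant response element, MTF1 induces metallothioneins through metal response elements, and ATF4 induces amino acid transport and synthesis genes.

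The cultures carried the markers of their label. With vehicle, the cardiac troponin gene Tnnt2 had 2652 FPKM and the ventricular myosin light chain gene Myl2 had 2688 FPKM. Fibroblast, smooth muscle, endothelial and macrophage markers were also measured, so the cultures were not myocytes alone. None of the T cell markers and none of the dendritic and B cell markers reached a mean of 1 FPKM.

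Over all genes the 0 h groups lay close together. The median difference was -0.01, the quartiles were -0.16 and 0.13, and 47.2% of genes lay above 0. Of the 10431 genes, 111 met the rule (1.06%), 52 of them higher with SR9009 (0.499%) and 59 lower (0.566%). A difference of at least 1.5-fold, whatever its bounds, was seen in 5.51% of genes at 0 h, against 8.21% at 4 h and 19.9% at 48 h of PE. Among the 111 were 9 microRNA hairpin or ribosomal RNA entries, 5 higher and 4 lower. These are short or non-polyadenylated transcripts that an mRNA library does not measure well, some of them lie inside other genes, and they are not described further. Just inside the size limit stood Casp4 at 1.01 and Hrc at -1.0, and just outside it Slc6a9 at 0.98 and Lpar3 at -0.99.

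**Figure D1:**
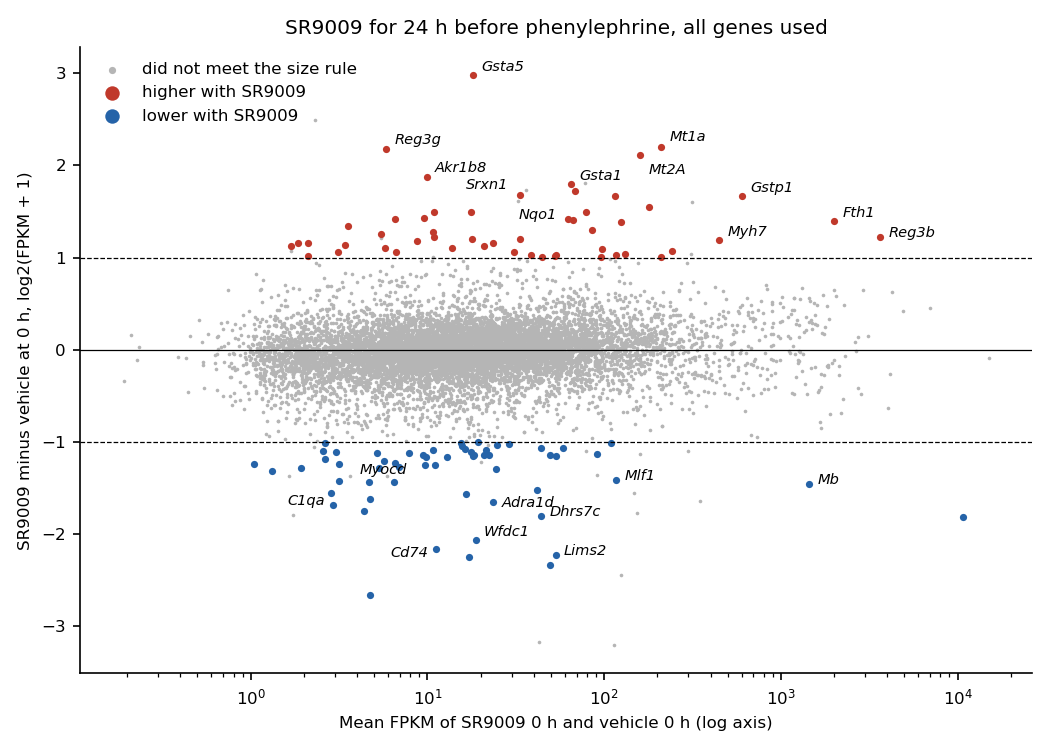
Difference between SR9009 and vehicle at 0 h, on the log2(FPKM + 1) scale, against the mean FPKM of both groups on a log axis, 1 point per gene used. Red points are the 52 genes called higher and blue points the 59 called lower, the dashed lines stand at the size limit of 1 in either direction, and both kinds of call occur at low and at high levels.

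Glutathione transferases stood at the top of the comparison. Gsta5, an alpha class glutathione transferase, which couples glutathione to reactive compounds (chromosome 8, 85553726 to 85564966, rn6), had 32.7 FPKM with SR9009 and 3.29 FPKM with vehicle. Its difference of 2.98 (2.19 to 3.81) was the highest of all calls. Its alpha class relatives Gsta1, at 101 against 28.3 FPKM, and Gsta4, at 181 against 68.5 FPKM, differed by 1.80 and 1.39. The pi class gene Gstp1 stood at 916 FPKM with SR9009 and 287 FPKM with vehicle, a difference of 1.67 (1.25 to 2.09), and the microsomal transferase Mgst1 at 132 against 61.5 FPKM. In all, 5 of 20 glutathione transferases used were higher and 0 lower, with a list median of 0.29. The remaining classes were mixed: Gstm1 had a difference of 0.87 and Gstt2 of 0.74, while Gstm7 stood at -0.54 and Mgst3 at -0.38. Gsta2 was listed at 4.63 FPKM with SR9009 and 0.000788 FPKM with vehicle, with a range of -0.26 to 3.52 that includes 0. Its locus overlaps that of Gsta5 in the table and the family has close copies, so the split of reads among the alpha class genes is uncertain.

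The metallothioneins, small proteins that bind zinc and other metals, differed as a pair. Mt1a had 345 FPKM with SR9009 and 74.4 FPKM with vehicle, a difference of 2.20 (1.72 to 2.70), and Mt2A had 260 and 59.5 FPKM, a difference of 2.11 (1.64 to 2.61). They lie 4959 bases apart on chromosome 19, Mt1a at 11301991 to 11303007 and Mt2A at 11307966 to 11308740 (rn6). The other genes of the metal response list did not meet the rule. The brain-type gene Mt3 had 1.76 against 1.05 FPKM, the zinc exporter Slc30a1 a difference of 0.16, and Mtf1 itself one of -0.07.

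The upstream sequences of genes from these groups, and of Arntl for the clock results below, show which elements stand there. Each line is the 250 bases before the gene's start, from RefSeq on build GRCr8, read 5′ to 3′ on the gene's strand. Capitals mark, in the first 3, matches on either strand to the metal response core TGCACNC or TGCGCNC and to the antioxidant response core TGACNNNGC, and in Arntl the match to the REV-ERB and ROR element ANTNGGTCA.
Mt1a (chr19:10832976-10833225, minus strand): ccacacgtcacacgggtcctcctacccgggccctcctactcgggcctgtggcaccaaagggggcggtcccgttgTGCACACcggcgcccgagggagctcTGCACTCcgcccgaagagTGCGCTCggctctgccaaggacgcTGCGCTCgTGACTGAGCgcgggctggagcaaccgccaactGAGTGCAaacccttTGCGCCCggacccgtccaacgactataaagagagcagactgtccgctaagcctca
Mt2A (chr19:10838709-10838958, minus strand): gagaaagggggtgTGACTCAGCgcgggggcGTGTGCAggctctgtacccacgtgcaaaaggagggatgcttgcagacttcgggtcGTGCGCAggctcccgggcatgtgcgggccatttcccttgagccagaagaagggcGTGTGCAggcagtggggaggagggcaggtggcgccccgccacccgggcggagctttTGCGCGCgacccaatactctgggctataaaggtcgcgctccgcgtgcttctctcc
Gstp1 (chr1:210769706-210769955, minus strand): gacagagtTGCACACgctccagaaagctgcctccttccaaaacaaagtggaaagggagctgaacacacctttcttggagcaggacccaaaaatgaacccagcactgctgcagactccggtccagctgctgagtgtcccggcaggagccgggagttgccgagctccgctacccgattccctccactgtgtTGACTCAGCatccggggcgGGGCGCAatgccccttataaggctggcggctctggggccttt
Arntl (RefSeq name Bmal1, chr1:176766078-176766327, plus strand): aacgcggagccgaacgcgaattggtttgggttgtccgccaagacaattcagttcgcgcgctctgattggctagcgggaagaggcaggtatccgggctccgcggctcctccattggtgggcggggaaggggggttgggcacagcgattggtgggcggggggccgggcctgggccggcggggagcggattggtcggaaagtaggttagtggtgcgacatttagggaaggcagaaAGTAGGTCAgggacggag
Mt1a held 6 metal response matches, Mt2A 4 and Gstp1 2, and each of the 3 held 1 antioxidant match. The antioxidant matches of Mt2A and Gstp1, TGACTCAGC, also contain the AP-1 motif TGANTCA, which 6.34% of all windows hold. Arntl held 1 match to ANTNGGTCA, 18 to 10 bases before its start, and looser forms of the element were not searched. These cores are short and common: 20.6% of all 33469 windows hold the metal response core, 10.1% the antioxidant core and 2.05% the REV-ERB element. Of the genes higher with SR9009, 38 of 52 matched a window, and 9, 7 and 1 of them held the metal, antioxidant and REV-ERB motif. Of the genes lower, 38 of 59 matched, and 10, 3 and 0 held them. Among all 8447 genes used that matched, the shares were 32.9%, 13.4% and 1.43%. The 7 higher genes with the antioxidant core were Gstp1, Mt1a, Mt2A, Podxl, Rab30, Slc3a2 and Vamp1. Gsta1, Gsta4, Gsta5 and the genes called in the antioxidant list below were not among them, though not every called gene matched a window. The sequences shown therefore do not stand for those genes.

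Beyond the transferases, nearly the whole antioxidant list lay above 0. Of 36 NRF2 target and regulator genes used, 34 lay above 0, 6 were higher and 0 lower, and the median was 0.55, against -0.01 over all genes. Srxn1, encoding sulfiredoxin, which restores over-oxidised peroxiredoxins, had 51.5 FPKM with SR9009 and 15.4 FPKM with vehicle, a difference of 1.68 (1.29 to 2.07). The quinone reductase gene Nqo1 had 91.6 and 33.7 FPKM, a difference of 1.41 (0.98 to 1.85). The aldo-keto reductase gene Akr1b8 had 16.1 and 3.66 FPKM, and Slc7a11, the cystine importer that feeds glutathione synthesis, 8.27 and 3.30 FPKM. Mgst1 is the fifth of the 6. The last is Fth1, the ferritin heavy chain, at 2894 and 1100 FPKM. Its locus in the table spans 5 other genes, so its value is uncertain.

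Below the size limit stood thioredoxin reductase Txnrd1 at 0.97 (0.54 to 1.39), the autophagy adaptor Sqstm1 at 0.94, the glutathione synthesis subunit Gclc at 0.80 and heme oxygenase Hmox1 at 0.79. Gclm, the partner subunit of Gclc, was at 0.06. Nfe2l2 had 99.9 FPKM with SR9009 and 88.0 FPKM with vehicle, and its inhibitor Keap1 30.1 and 27.4 FPKM, so the regulators' own transcripts differed by 0.18 and 0.13. Outside the list, Ptgr1, which reduces prostaglandins and reactive aldehydes, was higher at 156 against 75.9 FPKM. Maoa, which oxidises noradrenaline and serotonin, was the 1 call among 9 drug metabolism genes used, at 97.5 against 36 FPKM and 1.41 (1.01 to 1.81).

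The aryl hydrocarbon receptor, another sensor of foreign compounds, shares Nqo1 as a target. Its classical targets did not meet the rule: Cyp1a1 had 5.23 FPKM with SR9009 and 3.33 FPKM with vehicle, a difference of 0.52 (0.03 to 1.02), and Aldh3a1 and Cyp1b1 had differences of 0.66 and 0.47. Of 8 genes used in that list 7 lay above 0, and Nqo1 was the 1 call. The receptor gene Ahr itself had a difference of 0.12.

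Genes of amino acid supply also lay above 0. All 28 ATF4 response genes used lay above 0, the median was 0.51, and 3 were higher and 0 lower. These were Slc7a11, its heavy chain partner Slc3a2, at 281 against 139 FPKM and 1.01 (0.58 to 1.44), and the pseudokinase gene Trib3, at 71.7 against 34.5 FPKM and 1.03 (0.63 to 1.43). Asparagine synthetase Asns at 0.90, the neutral amino acid transporter Slc7a5 at 0.87 and the stress cytokine Gdf15 at 0.84 stood below the limit, and Atf4 itself at 0.39. Of 21 chaperone and unfolded protein response genes 20 lay above 0, with a median of 0.34 and no call. The largest were Derl3 at 0.91 and Sdf2l1 at 0.77, and the main chaperone gene Hspa5 was at 0.55. Of 22 ribosome biogenesis genes 21 lay above 0 (median 0.25), and of 31 sterol and fatty acid synthesis genes 26 did (median 0.16), again with no call in either list. Cytosolic heat shock genes, at a median of 0.04, and proteasome genes, at 0.02, were near the median of all genes.

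Several secreted and inflammatory proteins had higher transcript levels. The regenerating islet lectins Reg3b, at 5122 against 2187 FPKM, and Reg3g, at 10.2 against 1.46 FPKM, differed by 1.23 and 2.18. The secretory phospholipase Pla2g2a had 14.4 and 4.70 FPKM. Together they were the 3 calls among 17 genes of the gp130 and acute phase list, of which 14 lay above 0. The related phospholipase Pla2g2d, at 5.55 against 1.59 FPKM, lies 53925 bases from Pla2g2a, and Reg3b and Reg3g are 59169 bases apart. The close copies within the Reg3 family make its values uncertain. The chemokine Ccl20 at 1.28, hepcidin (Hamp) at 1.01 and the interferon-inducible gene Ifi27l2b at 1.55 were also higher. Ifi27l2b was the 1 call among 26 interferon-stimulated genes, of which 22 lay above 0.

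The other genes called higher are of varied kinds. Among signalling genes, Myc had 15.6 FPKM with SR9009 and 6.12 FPKM with vehicle and was the 1 call among 28 immediate early genes used. The bradykinin receptor Bdkrb2 had 2.94 and 0.76 FPKM, and the adrenomedullin-related peptide gene Adm2 12.5 and 4.95 FPKM. Osteopontin (Spp1), at 121 against 48.7 FPKM, was the 1 call among 22 matricellular and proteoglycan genes. Membrane and secretory pathway genes included Serinc2 and Podxl, both at 1.49, the phospholipase gene Pla2g7, with 47.1 FPKM with SR9009 and 19.9 FPKM with vehicle, the vesicle protein gene Vamp1, with 25.3 and 10.4 FPKM, the nucleotidase gene Entpd5 at 1.16 and the mannosidase gene Man1a1 at 1.03. Star, which moves cholesterol into mitochondria, had 3.30 and 0.93 FPKM, and Ass1, an enzyme of arginine synthesis, 4.57 and 1.68 FPKM.

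Several genes known from heart muscle were lower with SR9009. Myoglobin (Mb), the oxygen-binding protein of muscle (chromosome 7, 118101633 to 118108864), had 774 FPKM with SR9009 and 2124 FPKM with vehicle, a difference of -1.45 (-1.89 to -1.01). Lims2, an adaptor of integrin adhesions, had 18.0 and 88.3 FPKM, a difference of -2.23 (-2.63 to -1.82). Its locus overlaps Gpr17 in the table, which had 2.86 and 8.97 FPKM. The caveolar gene Murc (cavin-4) stood at 7.85 against 25.2 FPKM, the Z-disc gene Tcap at 12.7 against 29.2 FPKM, the melusin gene Itgb1bp2, a stretch sensor, at 30.4 against 68.3 FPKM, and the actin-binding gene Abra at 4.56 against 11.1 FPKM. The mitochondrial creatine kinase of muscle, Ckmt2, had 13.8 and 35.2 FPKM. The calcium-binding protein gene S100a1 had 56.6 and 125 FPKM.

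Contractile genes as a list lay mostly below 0, most by less than the rule asks. Of 25 used, 21 lay below 0 and the median was -0.51, with Lims2 and Tcap lower and Myh7 higher. Myl3 at -0.86, Ldb3 at -0.83, Myl4 at -0.79, Tpm1 at -0.78 and Myl2 at -0.69 (-1.10 to -0.28) did not reach the limit. The slow myosin gene Myh7 had 620 FPKM with SR9009 and 272 FPKM with vehicle, a difference of 1.19 (0.79 to 1.58). Its near-identical neighbour Myh6 had 754 FPKM with SR9009 and no estimate with vehicle, so the division of reads between them may differ between the groups. Of 20 calcium handling genes 16 lay below 0, with a median of -0.40. Dhrs7c, a dehydrogenase of the sarcoplasmic reticulum (chromosome 10, 54352270 to 54370653), had 19.1 and 69.0 FPKM, a difference of -1.80 (-2.26 to -1.35), and the calcium-binding gene Hrc had 12.5 and 26.0 FPKM, a difference of -1.0. The calcium release channel gene Ryr2 at -0.86 and the calcium pump gene Atp2a2 at -0.70 stood below the limit.

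All 10 cardiomyocyte markers used lay below 0 as well, with a median of -0.50 and no call, and their summed level was 12231 FPKM with SR9009 and 17790 FPKM with vehicle. In RNA from a whole culture, fewer myocytes and less of these transcripts per myocyte cannot be told apart. Fibroblast markers had a median of -0.14, smooth muscle markers -0.14 and endothelial markers 0.00, with no call among 29 genes, and their part in the myocyte differences was not tested.

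Energy genes differed less. Of 43 oxidative phosphorylation subunits 41 lay below 0, with a median of -0.26, a range over genes of -0.64 to 0.27 and no call. Fatty acid oxidation genes had a median of -0.11 and glycolysis genes of -0.04, also without a call. In the glycolysis list the muscle enzymes Pgam2 at -0.96 and Eno3 at -0.88 and the insulin-responsive glucose transporter Slc2a4 at -0.79 were the lowest. The mitochondrial coactivators Ppargc1a and Ppargc1b were at -0.66 and -0.65.

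**Figure D2:**
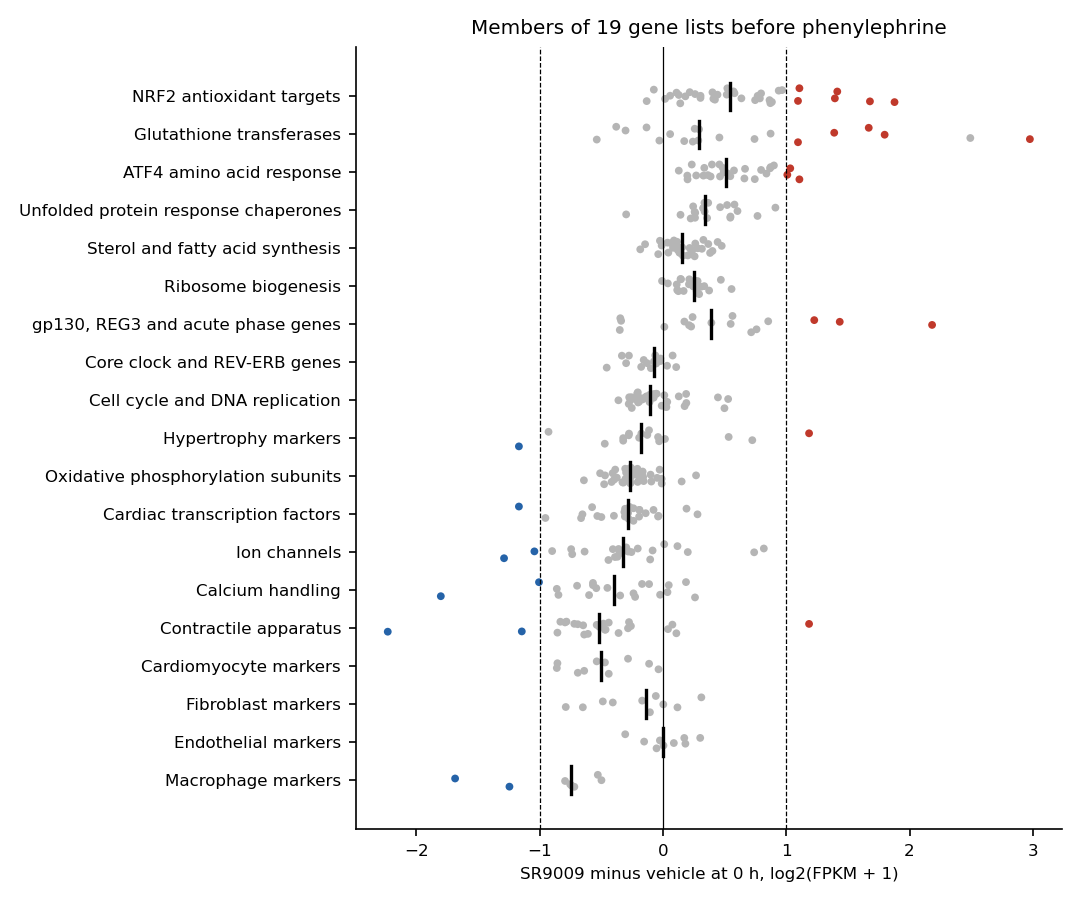
SR9009 minus vehicle at 0 h on the log2(FPKM + 1) scale for the used members of several gene lists, 1 point per gene, with red and blue for genes called higher and lower and a black bar at the list median. Antioxidant (median 0.55) and ATF4 response genes (0.51) lie mostly to the right of 0, and contractile (-0.51), calcium handling (-0.40) and macrophage genes (-0.75) mostly to the left.

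Of 26 cardiac transcription factors and coactivators 24 lay below 0, with a median of -0.28 and 1 call. That was Myocd, the cofactor of SRF in muscle gene expression, with 5.67 FPKM with SR9009 and 14 FPKM with vehicle, a difference of -1.17 (-1.37 to -0.94). The bounds of its SR9009 value nearly coincide with the value, so its range may be too narrow. Rxrg, a retinoid receptor, stood at -0.95 (-1.39 to -0.52), Tbx20 at -0.57, Tbx5 at -0.53, Gata4 at -0.28 and Nkx2-5 at -0.04.

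Adra1d, which encodes the α1D-adrenergic receptor, a receptor of PE (chromosome 3, 124129558 to 124145566), had 10.8 FPKM with SR9009 and 36.3 FPKM with vehicle, a difference of -1.66 (-2.09 to -1.23). The other α1 receptors differed less: Adra1b had 23.3 and 39.5 FPKM, a difference of -0.74 (-1.09 to -0.37), and Adra1a 9.86 and 12.6 FPKM, a difference of -0.32 (-0.86 to 0.21). Adrb1 was at -0.47. Of 24 genes in the adrenergic and G-protein list 19 lay below 0 (median -0.24), with Adra1d lower and Bdkrb2 higher. The receptors for urocortin, Crhr2, at 0.33 against 2.32 FPKM, and for glucagon, Gcgr, at 5.33 against 14.1 FPKM, were also lower.

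Among 24 ion channel genes 19 lay below 0, with a median of -0.33. The pacemaker channel gene Hcn2 had 9.96 FPKM with SR9009 and 21.6 FPKM with vehicle and was among the genes called lower. Outside the list, the calcium channel subunits Cacna2d2, at 9.92 against 21.0 FPKM, and Cacng6, at 5.52 against 13.4 FPKM, were lower. The growth factor gene Igf1, at 6.48 against 14.9 FPKM, was the 1 call among 37 genes of the growth factor list, of which 30 lay below 0. The bounds of Igf1 with SR9009, 6.28 to 6.68 FPKM, lie close to the value, so its range may be too narrow. The cytokine signalling inhibitor Socs2, at 28.0 against 60.0 FPKM, and the imprinted noncoding RNA H19, at 13.3 against 29.3 FPKM, were lower too. The H19 locus holds Mir675, listed at 0 in both groups. Others among the lowest were Efhd1, a calcium-binding protein of mitochondria, at -1.75, Cmtm5 at -1.63, and genes best known from neurons, the vesicular glutamate transporter Slc17a7 and the GABA receptor subunit Gabrb2, both at -1.44. Cmtm5 lies 31583 bases from Myh7, which was called in the opposite direction.

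The complement genes C1qa, at 0.86 against 5.0 FPKM, and C1qc, at 0.21 against 1.88 FPKM, met the rule, and all 8 macrophage markers used lay below 0, with a median of -0.75. Their summed level was 21.7 FPKM with SR9009 and 41.6 FPKM with vehicle. Cd74, the invariant chain of MHC class II, had 3.46 and 19 FPKM, a difference of -2.16 (-2.83 to -1.56). The class II chains themselves stayed under 1 FPKM in both groups, with RT1-Da at 0.42 and 0.70 FPKM, and their regulator Ciita was at 0.06 and 0.15 FPKM. The chemokine Ccl6 was listed at 0 with SR9009 and at 1.91 FPKM with vehicle. Also called lower were the secreted protease inhibitor gene Wfdc1, at 6.62 against 30.9 FPKM, and the matrix gene Tgfbi, at 10.9 against 25.3 FPKM. The part of macrophage number in these differences was not tested.

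The clock genes showed no call at 0 h. Arntl had 7.39 FPKM with SR9009 and 7.50 FPKM with vehicle, a difference of -0.02 (-0.42 to 0.38). Nfil3, another gene that REV-ERB represses, had 11.9 and 13.3 FPKM, and Npas2 0.92 and 1.33 FPKM. Dbp, a clock output gene, had 21.1 and 26.9 FPKM. Of 17 clock genes used 14 lay below 0, with a median of -0.07 and a lowest value of -0.46 (-0.86 to -0.05) in Per3. Nr1d2 had 35.7 and 39.2 FPKM and Nr1d1 12.2 and 15.3 FPKM, a difference of -0.30 (-1.41 to 0.87), the widest of these ranges. The labels do not give the phase of the cultures' clocks.

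The hypertrophy markers were mostly uncalled before PE. Nppa, the atrial natriuretic peptide gene, had 181 FPKM with SR9009 and 184 FPKM with vehicle, and skeletal actin Acta1 320 and 387 FPKM. Nppb, the brain natriuretic peptide gene, had 175 and 105 FPKM, a difference of 0.73 (0.31 to 1.14). Of 17 hypertrophy markers used, Myh7 was higher and Myocd lower, and the median was -0.17.

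The remaining lists lay nearer the median of all genes. Those of the matrix and its growth factors were slightly below 0. The medians were -0.14 for 24 collagen and elastic fibre genes and -0.13 for 24 TGF-beta family genes, both without a call, and -0.15 for the matricellular list, in which Spp1 was the 1 call. The 35 cell cycle and DNA replication genes had a median of -0.11, the 18 atrophy and FOXO genes one of -0.06 and the 26 other nuclear receptors, Rxrg among them, one of -0.19, none of them with a call. Slightly above 0, also without a call, were 36 autophagy and lysosome genes (median 0.12), 11 LXR targets (0.17) and 4 heme and lipid genes named as REV-ERB targets (0.10). The 5 clock genes that REV-ERB represses had a median of -0.03.

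Lists with a call described above had medians of 0.30 for 6 metal response genes, 0.38 for the aryl hydrocarbon receptor list, 0.12 for drug metabolism, 0.23 for immediate early genes and 0.27 for interferon-stimulated genes. The 17 genes of the acute phase list had 0.39, the 17 chemokine and cytokine genes, with Ccl20 as the 1 call, 0.17, the 10 complement genes 0.01 and the 6 antigen presentation genes 0.06. Markers of minor cell types showed no call: 5 Schwann and neuronal markers had a median of -0.05, 5 epicardial markers 0.11, 3 adipocyte markers 0.04 and 4 erythroid markers 0.56. The erythroid markers summed to 75.8 FPKM with SR9009 and 50.7 FPKM with vehicle, and their part in other differences was not tested.

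The differences at 0 h were computed from the 0 h values. The values at 4 h and 48 h of PE entered that computation only through the filter on the mean of the 6 groups. Whether the authors' processing scaled the libraries or set the bounds over all groups together is not stated. Each time has its own vehicle group, so the later times show the same genes in other libraries. At 4 h, 18 of the 52 genes higher at 0 h were higher again (34.6% of them, and 34.6% of the 52 genes higher at 4 h), and 23 of the 59 lower genes were lower again (39.0% of them, and 21.1% of the 109 lower at 4 h). Over all genes used at 4 h, 0.499% were higher and 1.05% lower. No gene was called in opposite directions at 0 h and 4 h. Of the genes with a value at 4 h, 46 of 50 higher genes lay above 0, with a median of 0.78, and 55 of 56 lower genes lay below 0, with a median of -0.87. The median over all genes at 4 h was -0.06, and 40.9% of them lay above 0.

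At 48 h most of the calls at 0 h were not made again. Of the higher genes 8 were higher again and 5 were lower, and of the lower genes 8 were lower again and 7 higher, where 2.33% of all genes were higher and 4.55% lower. The medians were 0.13 for the higher genes and 0.13 for the lower genes, against -0.04 over all genes. Of all genes used at 48 h, 45.3% lay above 0, and the list counts below are to be read beside that share. Lists differed in this. Of 20 glutathione transferases 6 were higher at 48 h and 0 lower, with a median of 0.89, and all 8 macrophage markers lay below 0, with a median of -0.46. The antioxidant list had 2 genes higher and 2 lower of 36, with a median of -0.12, and the contractile list a median of -0.30 over 24 genes. Calcium handling genes had a median of 0.25, with 4 of 20 higher and 2 lower, and the ATF4 list one of -0.93, with 12 of 28 lower and 0 higher. Of 17 clock genes, 12 lay below 0 at 48 h, 4 were lower and 0 higher, with a median of -0.24. Arntl, at -1.05 (-1.46 to -0.63), and Nfil3, at -1.09, were among the 4. Gsta1, Mgst1 and Nqo1 were higher at all 3 times, and C1qa, Murc and Wfdc1 were among the genes lower at all 3.

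**Figure D3:**
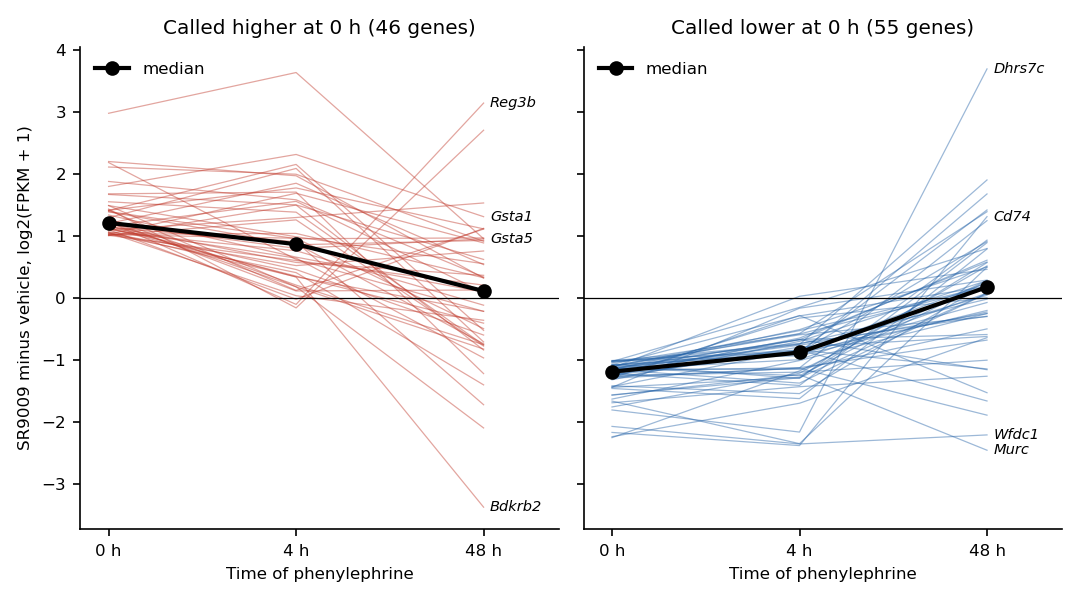
SR9009 minus vehicle at 0 h, 4 h and 48 h of phenylephrine, on the log2(FPKM + 1) scale, for the genes called higher (left) and lower (right) at 0 h that were used at all 3 times, without microRNA and ribosomal RNA entries. Each thin line is 1 gene and the black line the median, which stays on the side of the 0 h call at 4 h and is near 0 at 48 h.

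The levels in the 6 groups show how single genes did this. Gsta5 had 55.9 FPKM with SR9009 and 3.59 FPKM with vehicle at 4 h, and 1.77 and 0.42 FPKM at 48 h. Nqo1 had 165 and 47.5 FPKM at 4 h and 53.0 and 23.9 FPKM at 48 h, so it was higher with SR9009 at each time while its level was lowest at 48 h in both arms. Mt1a kept its SR9009 level at 4 h, 346 FPKM against 87.6 FPKM, and at 48 h stood at 107 against 85.2 FPKM. Maoa had 151 and 33.2 FPKM at 4 h and 49.0 and 70.6 FPKM at 48 h.

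Among the lower genes, Adra1d had 1.82 FPKM with SR9009 and 13.3 FPKM with vehicle at 4 h, and 11.6 and 7.94 FPKM at 48 h. Its vehicle level was thus highest before PE and lowest at 48 h. Mb had 607 and 1866 FPKM at 4 h and 1257 and 726 FPKM at 48 h, with no overlap of the bounds at either time. Lims2 had 60.1 and 197 FPKM at 4 h and 54.1 and 84.6 FPKM at 48 h, and Myocd 14.3 and 32.3 FPKM, then 19.9 and 32.3 FPKM. Both stayed lower with SR9009 in value, though neither met the rule at 48 h. Murc had 58.1 and 138 FPKM at 4 h and 15.2 and 87.3 FPKM at 48 h. PE time, time in culture and time since SR9009 or vehicle was added run together. A change of a level or of a difference across times therefore cannot be assigned to any of them.

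**Figure D4:**
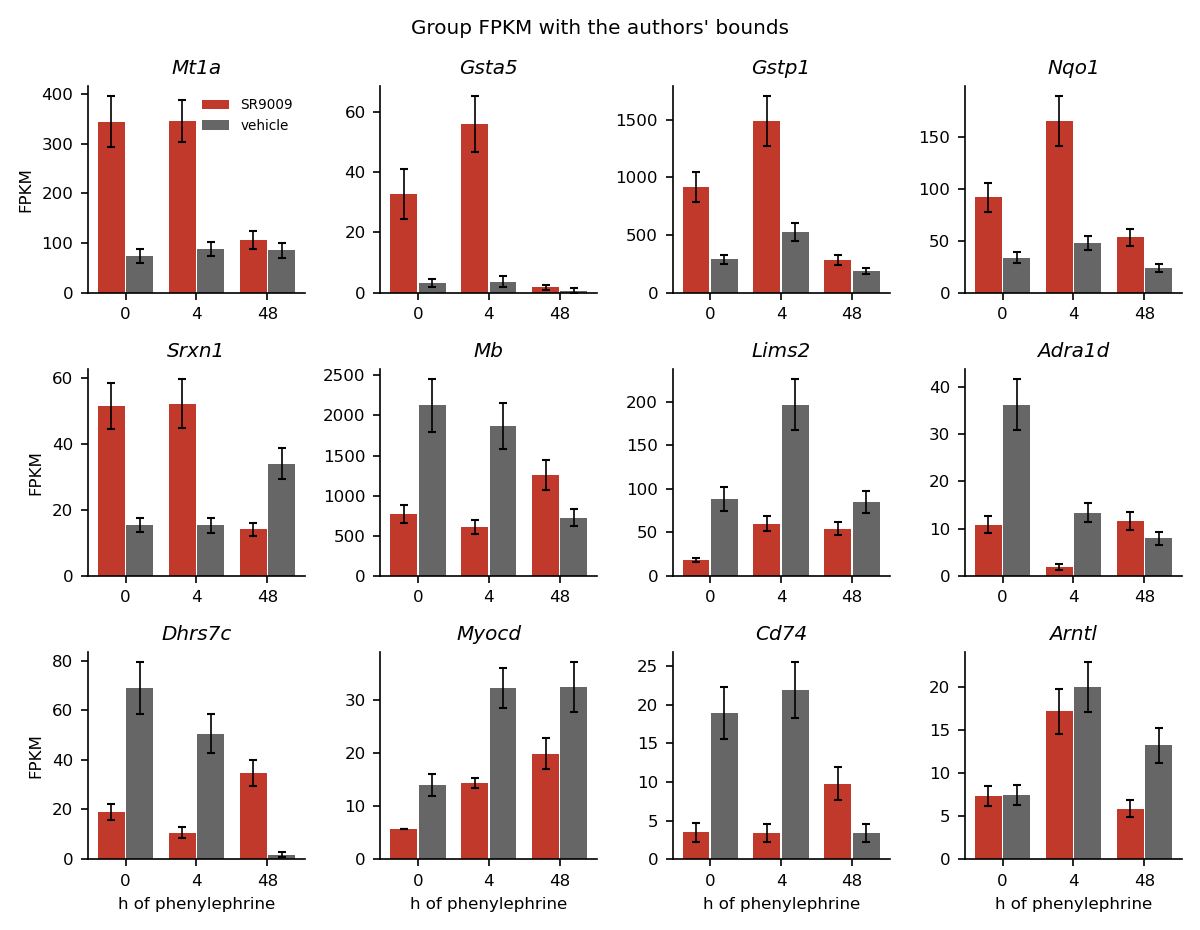
FPKM of 12 genes in the 6 groups, SR9009 in red and vehicle in grey, at 0, 4 and 48 h of phenylephrine, with the authors' confidence bounds as error bars and each axis starting at 0. The bars of Mt1a, Gsta5, Gstp1, Nqo1 and Srxn1 are taller with SR9009 at 0 h and 4 h, those of Mb, Lims2, Adra1d, Dhrs7c, Myocd and Cd74 shorter, and those of Arntl alike at 0 h.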

How the data were processed

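RNA from cultured neonatal rat ventricular myocytes was sequenced from 18 libraries, 3 per group, after a stranded mRNA preparation, per the labels' protocols. The authors deposited FPKM values, 1 per gene and group with a lower and an upper bound and a status, per the file headers. Per the submitters' processing notes, FastQC, Trim Galore, TopHat and Cuffdiff were used with build rn6; no versions are stated. The level of confidence of the bounds, the scaling between libraries, the annotation and the use of strand in counting are not stated in the sources used here. Depth is unknown.

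From these values the differences, ranges and calls defined in the report were computed with Python 3.11.15 and pandas 2.3.3. Values with a status other than OK were treated as missing (6 genes with vehicle and 3 with SR9009 at 0 h). Of 10545 genes averaging 1 FPKM or more, 111 were left out because a compared group was listed at 0, which can be a failed estimate, and 3 because it had no estimate. Another 16 lay outside their own bounds and were not called. The 38 pathway lists and 11 cell type lists, the members and the naming rule were chosen with earlier results of these data known. Named are the 12 highest and lowest calls with at least 5 FPKM in either group, the called members of each list with up to 6 further ones, a fixed set of clock, hypertrophy and regulator genes, and any other called gene; a few that the rule names are not reported here. Loci are those of the table with the start read as counted from 0. Lengths then equal those of RefSeq GRCr8 for 2074 of 14809 symbols compared, against 277 otherwise, and most match neither way. Promoters were matched by symbol or a unique RefSeq synonym. Alternatives tried were pseudocounts of 0.1 and 0.5, other filters, 3 scalings, another size limit and calls without bounds.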

Additional observations from a re-analysis of the deposited data

Results flagged for a closer look

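In 12 genes SR9009 and vehicle differed in opposite directions at 0 h and at 48 h of phenylephrine, each by the size rule. The difference between the times was not tested, since there is 1 value per group. On the log2(FPKM + 1) scale, the SR9009 difference at 48 h minus that at 0 h was 5.49 in Dhrs7c, 3.47 in Cd74, 2.93 in Smim5, 2.82 in Ppap2b, 2.54 in Ckmt2, 2.50 in Fam163b and 2.42 in Hrc, the 7 genes lower at 0 h and higher at 48 h. It was -4.53 in Bdkrb2, -3.31 in Myc, -2.89 in Srxn1, -2.89 in Adm2 and -2.43 in Trib3, the 5 genes higher at 0 h and lower at 48 h.

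Dhrs7c had 19.1 FPKM with SR9009 and 69.0 FPKM with vehicle at 0 h, and 34.6 and 1.76 FPKM at 48 h. Bdkrb2 had 2.94 and 0.76 FPKM at 0 h, and 2.27 and 32.7 FPKM at 48 h. In both, the vehicle level moved further between the times than the SR9009 level. The same held for Cd74, Smim5, Ppap2b and Fam163b. In Trib3, Adm2, Myc, Srxn1 and Ckmt2 the SR9009 level moved further, and in Hrc both moved about alike. Trib3 had 71.7 FPKM with SR9009 and 34.5 FPKM with vehicle at 0 h, and 9.30 and 26.1 FPKM at 48 h.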

How the results depend on the processing

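No paired analysis was possible because the table holds 1 value per group, and for the same reason no replicate could be left out. Under equal sums, median centring and quantile normalization, 107 of the 111 calls were kept. Cacna2d2 and Hrc fell short with median centring, and Abcb9 and Nt5c1a with quantile normalization. No call changed sign under the 3 scalings, though equal sums and median centring moved the differences too little to do so. The other alternatives cannot change the sign of a difference, so they say nothing on this. With a pseudocount of 0.1, 97 genes were lower, 28 were higher at both 0 h and 4 h, 44 lower at both (72 in all with the same call), and 18 lower at both 0 h and 48 h. This last count was 14 with a pseudocount of 0.5 and 4 with a mean of at least 5 FPKM. With a limit of 1.5-fold, 483 genes were called, 194 higher and 289 lower, 119 of them in a pathway list. Of the 483 genes, 82 were higher and 162 lower again at 4 h (244 in all). At 48 h, 37 were higher and 43 lower again, and 131 were called in the opposite direction. Opposite calls outnumbered repeated ones at this limit. The shares of all genes called higher and lower at 48 h by this limit were not computed, so these counts have no background. At the 2-fold limit opposite calls did not outnumber repeated ones, with 8 higher again, 8 lower again and 12 opposite. Whatever their bounds, 8.21% of all genes differed by at least 1.5-fold at 4 h and 19.9% at 48 h. Pseudocounts below 1 admit more genes of low level, where the deposited bounds are the only measure of error.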
